A study of Rattus norvegicus with 11 samples.

Results

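miR-126, miR-221 and miR-222 are microRNAs (miRNAs) known from blood vessels, and their values were taken in pancreatic islets of female rats whose fathers had eaten a high-fat or a control diet. They were chosen by their array names, rno-miR-126, rno-miR-221 and rno-miR-222 without a star, and are 3 of the 340 miRNA names that stood on both array designs of the study. Islets hold the endocrine cells of the pancreas, with insulin-producing beta cells the most common, and are densely supplied with capillaries. The 11 samples were islets of Sprague Dawley daughters, taken at 13 weeks of age. HFD daughters, 5 in number, had fathers that ate pellets with 43% fat, and Control daughters, 6 in number, had fathers that ate chow with 9% fat. All fathers were mated at 15 weeks of age with females that ate chow, and all daughters were weaned at 3 weeks onto chow, so that no daughter studied here ate the high-fat diet herself. Only females were measured, and the labels leave unsaid which of them were sisters. The comparison asks whether the father's diet was accompanied by different levels of these miRNAs in his daughters' islets.

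A miRNA is a short RNA that lowers the output of messenger RNAs, which it finds mainly by pairing through its seed, the stretch near its 5′ end. miR-126 is cut from an RNA made with Egfl7, a gene of endothelial cells, the cells that line vessels, and in mice it represses Spred1, an inhibitor of the signal from vascular endothelial growth factor. miR-221 and miR-222 are made from neighbouring genes, repress the growth factor receptor KIT in human endothelial cells, and promote proliferation of rat vascular smooth muscle cells. In whole islets, such miRNAs can come from vessel cells as well as from endocrine cells.

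The mature sequences are shown first because shared and different seeds set which of these miRNAs could address the same targets. They are from RefSeq for the rat assembly GRCr8, written 5′ to 3′, with the seed, bases 2 to 8, in capitals. The array name miR-126 was matched by name to the entry miR-126a-3p there, and miR-126*, the partner strand of the same hairpin, to miR-126a-5p. The array files give no probe sequence to check the match against.
miR-126a-3p: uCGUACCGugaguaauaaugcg
miR-126a-5p: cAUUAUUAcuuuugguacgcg
miR-221-3p: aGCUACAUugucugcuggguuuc
miR-222-3p: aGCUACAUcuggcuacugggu
miR-221-3p and miR-222-3p carried the same seed, and no other of the 693 mature names in the RefSeq table had it. They were identical over the first 8 bases and at 11 of the 21 positions compared from the 5′ end. All positions that differ thus lie behind the seed. The seeds of miR-126a-3p and miR-126a-5p each occurred in 1 mature name only. The gene matched to miR-126, named Mir126b there, lies on chromosome 3, within Egfl7 in that annotation. Those of miR-221 and miR-222 lie on chromosome X, with 0 annotated genes wholly between them.

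The RNA, 100 ng per sample, was hybridised in 1 colour to Agilent miRNA arrays. A first design with 350 miRNAs held 4 HFD arrays (603, 607, 644 and 653) and 4 Control arrays (602, 613, 615 and 639), and a second with 677 held 1 HFD array (640) and 2 Control arrays (635 and 652). Each design was 1 slide and 1 scan, so design was a block in the tests. The scanner software detected 105 to 184 of the shared miRNAs per array. HFD 653 stood apart, with the fewest detected miRNAs and a standard deviation of 12.9 over its negative-control spots, against 2.26 to 3.65 on the other arrays of the first design and 8.79 to 10.4 on the second. miR-375, the main miRNA of endocrine islet cells, was detected on all 11 arrays, with scaled signals of 3717 to 4889 in HFD and 3778 to 5444 in Control islets of the first design. Over the 152 miRNAs detected on at least 5 arrays, limma called 0 (0%) at an adjusted p under 0.05, and 3 (1.97%) had an unadjusted p under 0.05. The smallest adjusted p was 0.987.

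miR-126 was the one of these miRNAs that islets of both groups showed clearly, and its level overlapped between them. It was detected on 5 of 5 HFD and 6 of 6 Control arrays, averaging 8.89 ± 0.36 in HFD and 8.80 ± 0.16 in Control islets of the first design (log2 scaled signal, SD, n = 4 each). miR-221 was detected on 1 of 5 HFD and 0 of 6 Control arrays, and miR-222 on 0 of 5 HFD and 0 of 6 Control arrays. Of the 20 spots per array for each miRNA, 210 of 220 spots of miR-126 were well above background, against 2 of 220 for miR-221 and 0 of 220 for miR-222. Islets were measured whole, so that fewer vessel cells and less of a miRNA per cell cannot be told apart.

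On the first design, the scaled signal of miR-126 was 613 in HFD 603, 552 in HFD 607, 349.7 in HFD 644 and 431 in HFD 653. It was 438 in Control 602, 463 in Control 613, 501 in Control 615 and 388 in Control 639. The HFD arrays thus held both the highest values, in HFD 603 and HFD 607, and the lowest, in HFD 644, and the Control arrays lay between them. On the second design, miR-126 read 743 in HFD 640, against 723 in Control 635 and 642 in Control 652. HFD 640 was above both Control arrays there, and closer to Control 635 than the Control arrays were to each other. The spread within HFD on the first design, an SD of 0.36 on the log2 scale, was wider than that within Control, 0.16, and whether the spreads differed was not tested.

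**Figure D1:**
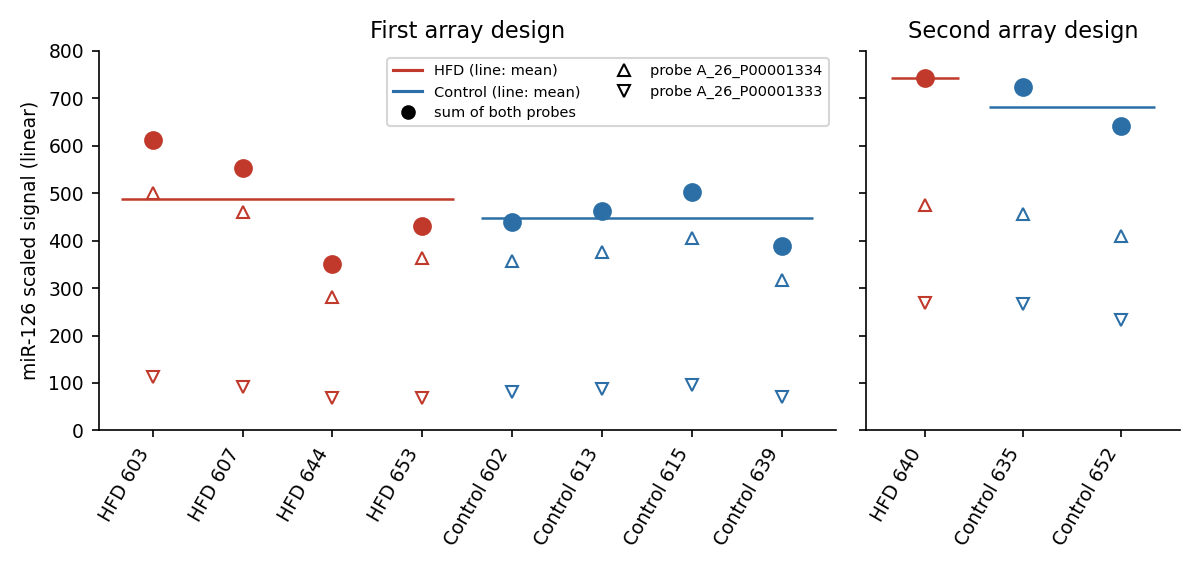
Scaled signal of miR-126 (linear intensity) by array, with HFD in red left of Control in blue, on the first design (left) and the second (right); filled points are the sum of both probes, open triangles the single probes, and lines the group means of the sum. HFD 603 and HFD 607 are the highest and HFD 644 the lowest of the first design, with the 4 Control arrays between 388 and 501.

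In the fit over all 152 miRNAs, miR-126 was 0.10 ± 0.15 higher in HFD than in Control islets (log2 difference and SE from limma with design as a block, 5 against 6 arrays), with an adjusted p of 0.987. The difference was smaller than its error, and the unadjusted p of 0.518 placed miR-126 at rank 72 of 152. The 95% interval ran from -0.23 to 0.44, a fold of 0.850 to 1.35 around 1.07. In this fit it thus lies inside a 1.5-fold change, 0.585 on the log2 scale, in either direction. With no scaling between arrays the interval was wider, from -0.50 to 0.85. It ran from -1.10 to 0.62 with the authors' deposited values, and both go beyond 1.5-fold. The exact permutation of the diet labels within design, 2-sided over 210 splits, gave p = 0.514, where the smallest p it allows is 0.00476. Both p-values take every sample as independent of the others. On the first design alone the difference was 0.093 and on the second alone 0.12, and the term for a diet effect that depends on design was 0.031 ± 0.37 with an unadjusted limma p of 0.935. Both designs therefore read slightly higher in HFD, with a very wide error on whether they differ. Groups that did not overlap within either design were seen for 1 of 152 miRNAs (0.658%), and this was miR-150, not miR-126.

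The direction of so small a difference depended on the scaling between arrays. A difference above 0 was seen for 108 of the 152 miRNAs (71.1%), with a median of 0.066, and miR-126 stood 0.035 above that median. With each array scaled by its 75th percentile over all shared miRNAs, miR-126 read -0.12, the median of all 152 moved by -0.21, and 23.7% of them were above 0. Scaled by the median over the miRNAs detected on all arrays, it read -0.052, with a shift of -0.15 in all and 32.2% above 0. Under quantile normalisation it read 0.024, although 31.6% of all were above 0. With no scaling it read 0.17, with 88.2% above 0. Relative to the median of all miRNAs, miR-126 was 0.018 to 0.099 higher in HFD under the 4 other scalings. Leaving out 1 array at a time gave 0.014 to 0.21, the lowest without HFD 603 and the highest without HFD 644, which are the arrays with the highest and lowest miR-126 of the first design.

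**Figure D2:**
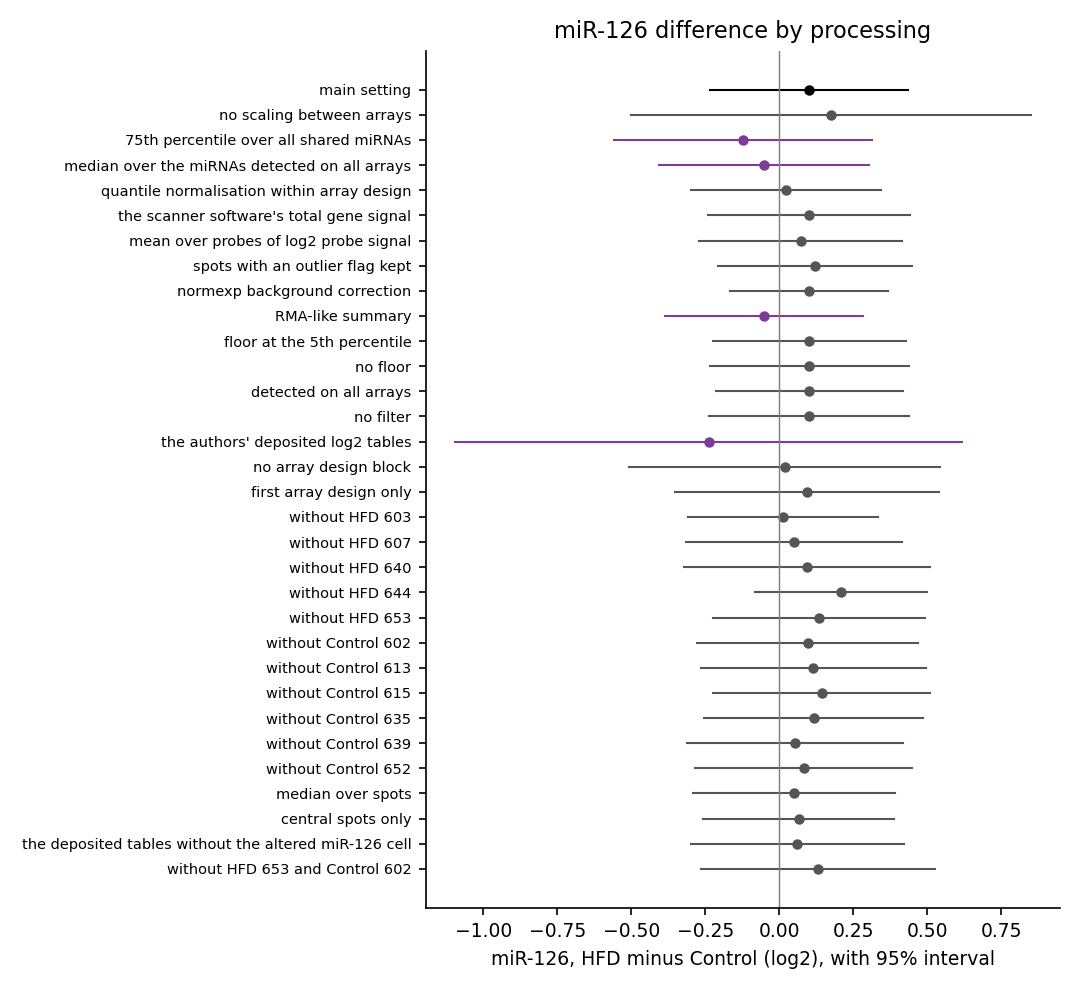
HFD minus Control difference of miR-126 (log2, points) with its 95% interval (lines) in the main setting (black) and under each other setting or left-out array; purple marks differences below 0. The 4 purple settings read -0.24 to -0.051, the main setting reads 0.10, and every interval spans 0.

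Each array carries 2 probes of miR-126 with 10 spots each, which allows a check within arrays. Probe A_26_P00001334 averaged 8.61 ± 0.37 in HFD and 8.50 ± 0.15 in Control islets of the first design (log2 scaled signal, SD, n = 4 each). Probe A_26_P00001333 averaged 6.38 ± 0.36 in HFD and 6.38 ± 0.18 in Control islets there. The first-design difference of 0.093 in the sum thus came from A_26_P00001334, at 0.11, while A_26_P00001333 read -0.00038. On the second design the probes read 0.13 and 0.11 higher in HFD. The signal of A_26_P00001334 over that of A_26_P00001333 was 4.43 in HFD 603, 4.99 in HFD 607, 4.17 in HFD 644 and 5.36 in HFD 653. It was 4.43 in Control 602, 4.32 in Control 613, 4.26 in Control 615 and 4.44 in Control 639. The SD of the ratio on the log2 scale was 0.16 over the HFD arrays and 0.028 over the Control arrays, and whether these differed was not tested. On HFD 653, 0 of the 10 spots of A_26_P00001333 were called well above background, so its ratio rests on a dim probe. Without HFD 653 the SD over the 3 remaining HFD arrays was 0.13, and miR-126 was 0.14 higher in HFD. On the second design the ratio was 1.77 in HFD 640, against 1.72 in Control 635 and 1.76 in Control 652.

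Repeated spots showed how finely one array measures miR-126. The coefficient of variation over all 10 spots was 7.03% to 30.9% for A_26_P00001334 on the first design and 4.56% to 6.52% on the second. For A_26_P00001333 it was 9.29% to 25.5% on the first design and 2.80% to 3.46% on the second. The second design thus gave the more repeatable spots, on 1 HFD and 2 Control arrays. Its spots were also brighter, with unscaled means of A_26_P00001333 at 266 to 565, against 43.5 to 90.5 on the first design. No spot of A_26_P00001334 lay in columns up to 30 on the second design. The part of brightness and place in the lower variation was not tested. Much of the highest variation had a place on the array. The 3 spots of A_26_P00001334 in columns up to 30 averaged 143 on HFD 653, against 272 over the other 7 spots (unscaled intensity), and 167 on Control 602, against 310 over the other 7. Their ratios were 0.527 on HFD 653 and 0.538 on Control 602, while the other 6 arrays of the design had ratios of 0.981 to 1.27. Dim left-hand spots were thus seen on 1 array of each group. Both arrays occupied the first place along the slide. Farther left, in columns 1 to 10, the median log2 deviation of bright probes was -0.11 to -0.0043 on the other 6 arrays of the design. It was -0.27 on HFD 653 and -0.34 on Control 602. Without those 2 arrays miR-126 was 0.13 higher in HFD, and with spots in columns 40 to 75 only it was 0.065 higher.

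**Figure D3:**
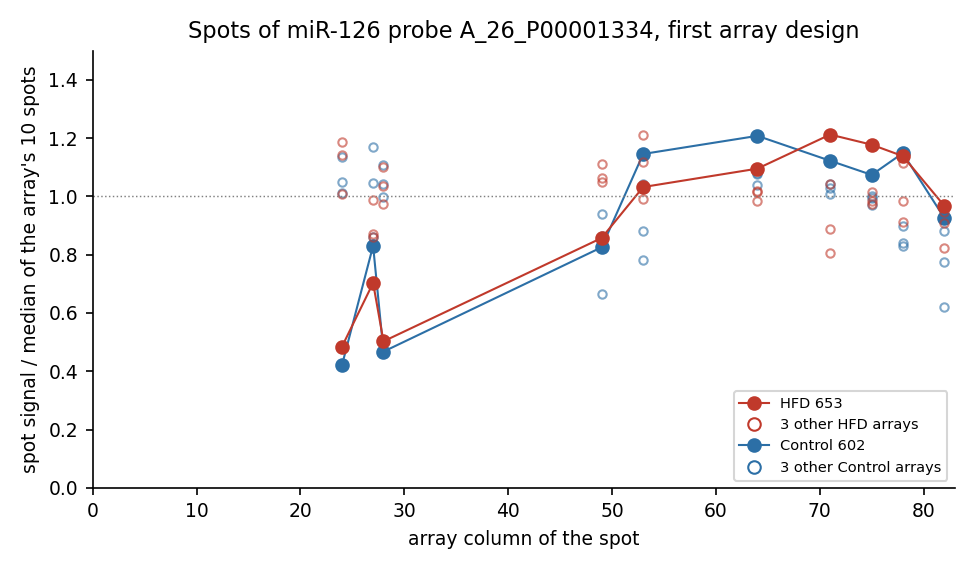
Signal of each of the 10 spots of probe A_26_P00001334 on the arrays of the first design, divided by the array's median over them (no unit), against the array column of the spot. At columns up to 30, HFD 653 (red, filled) lies at 0.484 to 0.703 and Control 602 (blue, filled) at 0.421 to 0.831, while the 3 other HFD arrays (open) lie at 0.861 to 1.19 and the 3 other Control arrays (open) at 0.860 to 1.17.

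The partner strand miR-126* was detected on 0 of 8 first-design and 3 of 3 second-design arrays. On the second design its scaled signal was 56.8 in HFD 640, against 59.5 in Control 635 and 47.6 in Control 652. HFD 640 lay between the Control arrays. The detection calls thus split by array design, in HFD and Control islets alike.

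miR-221 was at or near background in islets of both groups. On the first design, neither of its 2 probes had a mean above every one of the 7 negative-control probes on any of the 4 HFD or 4 Control arrays. The probe means ran from -0.23 to 3.89 in HFD and from -0.38 to 2.30 in Control islets there (unscaled, background-subtracted intensity). On the second design, its probes averaged 14.5 and 25.7 in HFD 640, where the highest negative-control probe averaged 11.6. They averaged 1.60 and 11.5 in Control 635, under the highest negative-control probe at 11.9, and 10.9 and 17.3 in Control 652, over the highest at 7.17. HFD 640 and Control 652 thus both stood above their negative controls, and Control 635 did not. The software called miR-221 detected on HFD 640 alone, with a total signal of 16.0 ± 4.44 (its own error estimate), and 1 of the 20 spots was well above background there. A detection on 1 array is no difference between the groups, and no fold is given.

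miR-222, which shares its seed with miR-221, was not detected in islets of either group. On the first design its scaled signal was -7.50 in HFD 603, -5.84 in HFD 607, -6.47 in HFD 644 and 38.1 in HFD 653. It was -5.37 in Control 602, -7.22 in Control 613, -7.66 in Control 615 and -4.35 in Control 639. All arrays but HFD 653 were below 0 after background subtraction. On HFD 653, probe A_26_P00001509 averaged 21.6 ± 6.62 (SE over spots), against 17.9 for the highest negative-control probe of that array, and the other probe averaged 2.85. This was the array with the noisiest negative controls, and 0 of its 20 spots for miR-222 were called well above background. On the second design miR-222 read 3.54 in HFD 640, against 0.99 in Control 635 and 1.84 in Control 652. The second-design probe means of miR-222, up to 8.66 in HFD 640 and up to 3.55 in Control islets, stayed within the range of the negative controls. Ratios of miR-222 to miR-221, and of miR-126 to either, were therefore not formed.

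**Figure D4:**
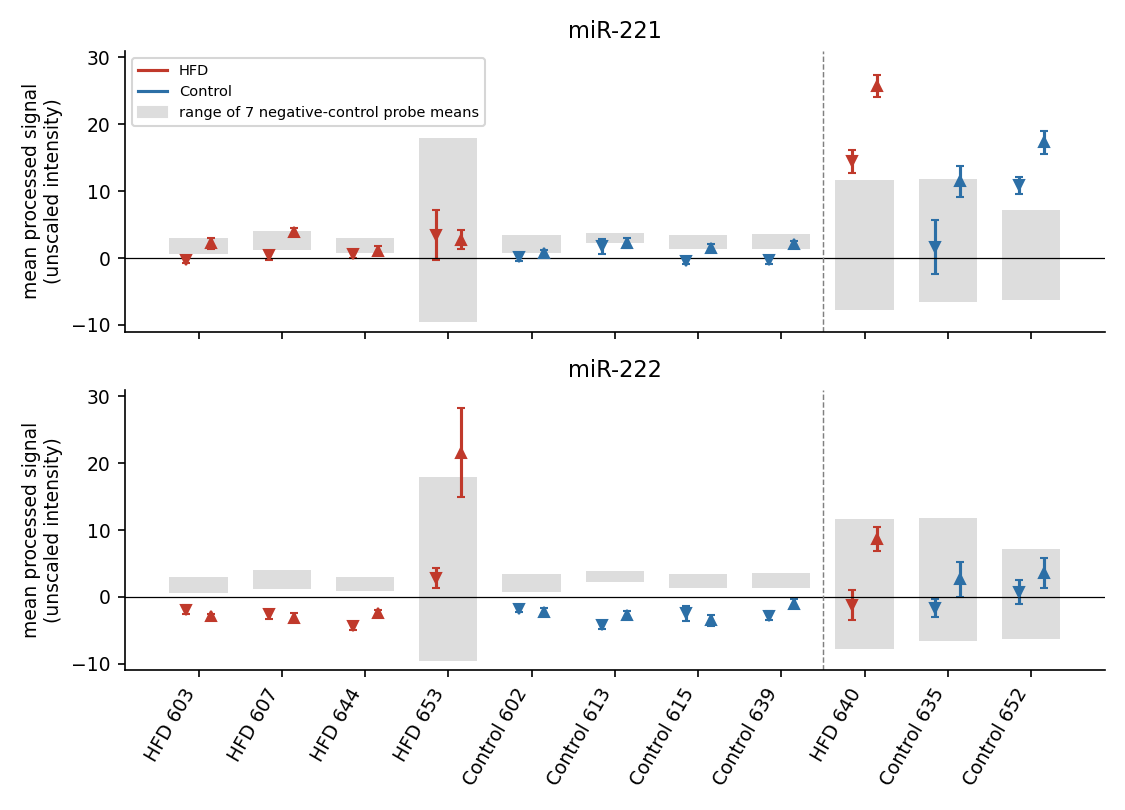
Mean signal of each probe of miR-221 (top) and miR-222 (bottom) by array (unscaled background-subtracted intensity), with SE over spots; triangles pointing down and up are the 2 probes, grey bars span the 7 negative-control probe means, and the dashed line parts the first design from the second. Values above the bars are seen for miR-221 on HFD 640 and Control 652 and for 1 probe of miR-222 on HFD 653.

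Of 18 names listed for endothelial cells and vessel growth, the 3 vascular miRNAs included, 14 were detected on at least 1 array and 12 were tested. In limma 0 of the 12 passed at an adjusted p under 0.05, and 0 had an unadjusted p under 0.05. Differences were above 0 for 10 and below 0 for 2, with a median of 0.11, beside 108 and 44 with a median of 0.066 over all 152. miR-222, miR-218, miR-296 and miR-503 were detected on none of the 11 arrays. The split of the list turned with the scaling, to 2 above and 10 below 0 under both the 75th percentile over all shared miRNAs and the median scaling, and to 5 and 7 under quantile normalisation. miR-210, which hypoxia induces, had the smallest p of the list, and read -0.28 ± 0.14 in HFD against Control with an adjusted limma p of 0.987. Its scaled signal was 110 in HFD 603, 139 in HFD 607, 165 in HFD 644 and 142 in HFD 653, against 184 in Control 602, 157 in Control 613, 219 in Control 615 and 179 in Control 639. The groups thus overlapped on the first design in HFD 644 and Control 613 only, while on the second HFD 640, at 80.1, was above Control 635 at 72.0 and Control 652 at 74.6. miR-23a, of the cluster with miR-24 and miR-27a, read 0.13 ± 0.093, and miR-100 read 0.26 ± 0.20, both with an adjusted limma p of 0.987. The 12 tested members ranged from -0.28 to 0.26.

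The miRNAs most like miR-126 over the arrays were miR-23a, miR-497 and miR-143, of 83 compared. Likeness was Pearson's r of log2 scaled signals over the 11 arrays after each design's mean was subtracted. The points share slides, scaling and RNA samples, and r is given as a description. miR-23a had an r of 0.883 and a Spearman rho of 0.873, miR-497, a relative of miR-16, an r of 0.873 and a rho of 0.809, and miR-143, a miRNA of smooth muscle, an r of 0.873 and a rho of 0.845. Without HFD 644 and HFD 603, the arrays farthest from the median of miR-126, r was 0.845, 0.759 and 0.799. On the first design alone it was 0.928, 0.899 and 0.936. miR-23a, with scaled signals of 309 to 390 in HFD and 310 to 359.6 in Control islets of the first design, varied far less than miR-143, with 240.4 to 522 in HFD and 229.8 to 383 in Control islets. The diet difference of miR-143 was 0.13 ± 0.25 and that of miR-497 0.10 ± 0.22, with an adjusted limma p of 0.987 for each.

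**Figure D5:**
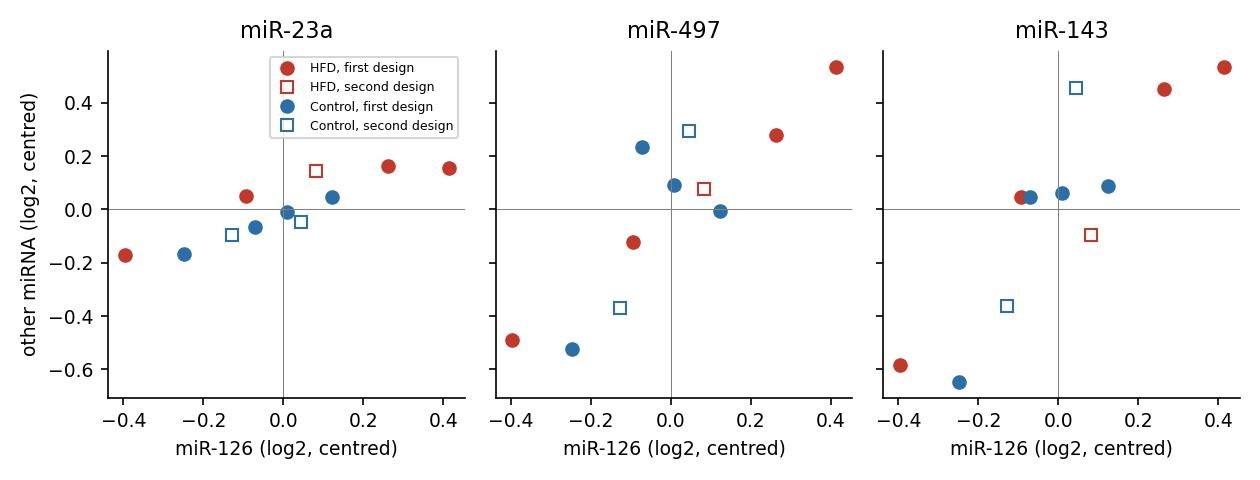
Log2 scaled signal of miR-23a, miR-497 and miR-143 against that of miR-126, each as the deviation from its mean over the array design, with HFD in red, Control in blue, the first design as filled circles and the second as open squares. The points run from HFD 644 and Control 639 at the lower left to HFD 607 and HFD 603 at the upper right.

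Markers of other cell types were high on some arrays with high miR-126 and also on others. HFD 603, with the highest miR-126 of the first design, also had the highest values there of the acinar marker miR-216a (666) and of the leukocyte markers miR-150 (209) and miR-142-3p (102). The order of the other arrays was not that of miR-126. Over all 11 arrays miR-216a still had an r of 0.557 and a rho of 0.491 with miR-126, rank 12 of 83. Without HFD 644 and HFD 603 its r was 0.409. HFD 653 had the next highest miR-150, at 71.2, but miR-150 was not detected on that array, which had the noisiest negative controls. Control 602 had the next highest miR-216a, at 618, and on both arrays miR-126 lay between the extremes. HFD 644, with the lowest miR-126, had a miR-216a of 106, above 88.7 in Control 615 and 21.0 in Control 639. Its miR-150 of 13.4 was above all 4 Control arrays, at 9.48 to 12.5. These miR-150 values lie near the floor of 10.3, and miR-150 was not detected on Control 615 and Control 639. Of the 6 leukocyte names 5 stood on both designs and 4 were detected on at least 1 array, and their summed scaled signal was 56.6 to 399 in HFD and 56.8 to 68.9 in Control islets of the first design. miR-142-5p was detected on no array. Of 3 acinar names both of those on the 2 designs were detected. Their sums were 106 to 666 in HFD and 21.0 to 623 in Control islets of the first design. All 10 smooth muscle and fibroblast names were detected on at least 1 array, although miR-145 was detected on 1 array only. Their sums were 1577 to 2185 in HFD and 1448 to 1993 in Control islets of the first design. Of the 4 red blood cell names 2 were detected on at least 1 array. On the first design their sum was 1091 to 1406 in HFD and 1190 to 1360 in Control islets. But miR-451 was detected on 0 of 8 first-design arrays and miR-144 on none. That sum is thus nearly all miR-16, which many cell types make, at 10.30 in HFD and 10.28 in Control islets (mean log2 scaled signal, first design). HFD 644 and Control 639, with the lowest miR-126 of their groups on the first design, also had the lowest miR-143 of theirs there, at 240.4 and 229.8. Since miR-143 was named for its likeness to miR-126 on these arrays, this is no separate observation. The part of other cell types in the spread of miR-126 was not tested.

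The authors' deposited tables of log2 values gave miR-126 a different direction through 1 value. On the first design they equal log2 of the software's total signal plus 50, with 0 of 2720 values more than 0.01 away from it. On the second they equal log2 of the total where the miRNA was detected, except in 7 of 549 values, and 1 of these is miR-126 in Control 635. The authors' deposited table holds 12.23 there, or 4815 on the linear scale, while the array file of the same sample gives a total of 480, whose log2 is 8.91. With the deposited values, miR-126 read -0.24 in HFD against Control islets, and with that value left out it read 0.061. Both were far from passing, and the array files carry no such value.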

How the data were processed

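Spot intensity was deposited per array as Agilent Feature Extraction wrote it, detrended over the array and background-subtracted, per the file headers, without normalisation between arrays. A second deposited file per array gave total intensity and detection per miRNA. Tables of log2 values were deposited too, whose scale was found by setting them against the array files. The submitters' processing notes name RMA and Partek; what each did is not given in the sources used here. Means over spots without an outlier flag were taken per probe and summed per miRNA. The scaling divided an array by its 75th percentile over 85 miRNAs that every array detected and gave the scaled signal. A floor of 10.3, the 1st percentile of scaled detected values, was applied before log2.

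HFD minus Control was fitted with limma 3.58.1 (R 4.3.3), with the array design as block, and p-values were 2-sided and adjusted by Benjamini-Hochberg over the 152 miRNAs detected on at least 5 arrays. miR-221 and miR-222 missed that filter. The fit was also run on simulated data with independent normal noise, without a design effect or floor, and no result here rests on that run. Descriptions used Python 3.11.15. Normexp, an alternative, used the median spot signal, since the files used here hold no mean signal. No spot was saturated. The number of arrays limits the precision.

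The miRNAs and lists were chosen with earlier results of these data known. The text names the 3 vascular miRNAs, miR-126*, the undetected list members and the 3 of smallest p, the 3 miRNAs most like miR-126, and set markers of other cells.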

Additional observations from a re-analysis of the deposited data

Results flagged for a closer look

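In 22 groups of 4 arrays, the gap between 1 array and its nearest neighbour was set against the group's whole range. 2 groups exceeded Dixon's 95% critical value, where chance gives about 1.1. The scaled signal of miR-222 in HFD islets of the first design had a ratio of 0.964, with HFD 653 at 38.1 and the other HFD arrays at -7.50 to -5.84. miR-222 was not detected on that array. miR-143 in Control islets of the first design had a ratio of 0.940, with Control 639 at 7.84 and the other Control arrays at 8.54 to 8.58 on the log2 scale.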

How the results depend on the processing

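No paired analysis was possible because the animal numbers of HFD and Control samples are all different. miR-126 had an adjusted limma p of 0.805 to 1 over 31 alternatives. Its difference was below 0 with the 75th percentile over all shared miRNAs (-0.12), median scaling (-0.052), an RMA-like summary (-0.051) and the authors' deposited tables (-0.24), and 0.014 to 0.21 leaving out 1 array. In the same order of the first 3 settings, miR-143 read -0.092, -0.020 and -0.025 and miR-497 -0.12, -0.048 and -0.11, while miR-23a read -0.097 and -0.025 under the first 2. Without the design block miR-23a read -0.084 and miR-100 -0.027. miR-497 read -0.22 and miR-100 -0.18 under quantile normalisation, miR-497 read -0.18 as a mean over probes, and miR-100 read -0.00083 in the RMA-like summary. miR-210 was below 0 under all 31 alternatives, at -0.51 to -0.058, with a lowest adjusted limma p of 0.801. On the second design alone it read 0.13, the other direction. Leaving out 1 array, miR-497 gave -0.011 to 0.23, with -0.0082 without Control 639 and -0.011 without HFD 603, and miR-143 gave -0.0064 to 0.29, the lowest without Control 639. The median of the endothelial list was -0.11, -0.038, -0.035 and -0.020 under the 75th percentile, median, quantile and RMA-like settings, and 0.062 to 0.13 leaving out 1 array. Without scaling, 1 miRNA passed, miR-150 (adjusted limma p of 0.00062), chosen for the text as a leukocyte marker. In the main setting miR-150 read 1.73 higher in HFD (log2). There it had the smallest unadjusted limma p of all, 0.018, and an adjusted p of 0.987. It was detected on 4 of 5 HFD and 3 of 6 Control arrays. A diet effect that depends on design was called for 0 miRNAs by limma in the main setting, 1 at an unadjusted p under 0.05, for 19 with no filter and for 1 in the deposited tables, with or without the altered value. For miR-221, detected on 1 array only, the mean difference was 0.15 with the floor applied, 0.58 as a mean over probes, 0.85 with no floor, and 0 without HFD 640. For miR-222 it was 0.35, 1.39 with no floor, and 0 without HFD 653. These are set by background and not read as folds. The r of miR-126 with miR-497 was 0.682 under normexp and 0.699 as a mean over probes, and that with miR-23a 0.767 under quantile normalisation. Over 26 alternatives the highest r was 0.928 with miR-497 and 0.938 with miR-23a. In the deposited tables the r of miR-126 was -0.69 with miR-23a, -0.73 with miR-497 and -0.046 with miR-143, and without the altered value 0.849, 0.823 and 0.879. The median over spots, the central spots, the tables without that value, and the fit without HFD 653 and Control 602 were chosen after seeing the data. The ratios between the 3 vascular miRNAs were not run. Causes were not tested. Signal over background limits miR-221 and miR-222, and the number of arrays limits miR-126.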
